A study of Mus musculus with 20 samples.

Results

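The question taken up here is which RNAs depended on FMRP for their enrichment in an FMRP immunoprecipitate, measured as the effect of genotype on the ratio of precipitated to total RNA. Enrichment was computed for each culture as the log2 CLIP level minus the log2 Input level, and the 5 knockout values were set against the 5 wild-type values. All 20 arrays of the series and all 24551 features of the deposited table entered the comparison. A feature is a group of probes that the table assigns to a gene, and 21300 gene symbols are covered. CLIP stands for crosslinking and immunoprecipitation: ultraviolet light links proteins to the RNA they touch, and an antibody then recovers the protein with that RNA.

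The 4 groups were Fmr1 knockout CLIP, Fmr1 knockout Input, wild-type CLIP and wild-type Input, with 5 arrays each. Every array came from primary cortical neurons of mouse embryos at embryonic day 17 on a C57Bl6 background. All cultures, of both genotypes, were grown for 8 days in vitro and irradiated at 254 nm before lysis. The 10 cultures each gave 1 CLIP and 1 Input array, without technical repeats. The labels do not say whether the cultures of a genotype came from separate litters, so the p-values measure the spread between these cultures only, and the knockout allele is not described further.

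FMRP, the product of Fmr1, is an RNA-binding protein that associates with polyribosomes and restrains the translation of many neuronal mRNAs, and its loss causes fragile X syndrome. Knockout cells make no FMRP, so RNA recovered from them with the antibody is the background of the precipitation. An RNA whose enrichment needs FMRP is therefore lower in knockout than in wild-type cultures by this measure. The difference of enrichment is given throughout as knockout minus wild type on the log2 scale, so that negative values mean lower enrichment in knockout. It equals the genotype difference in CLIP, called the CLIP part, minus the genotype difference in Input, called the Input part. RNA was amplified before labelling and the arrays were scaled alike (array medians 5.30 to 5.44), so the values describe the makeup of each sample and not the amount of RNA recovered.

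The table's values ran between 2.11 and 13.62. Enrichment profiles of single cultures correlated across features with a median r of 0.693 between knockout cultures (0.496 to 0.76), 0.73 between wild-type cultures (0.667 to 0.77) and 0.694 between cultures of different genotype (0.555 to 0.772). Genotype therefore did not part the cultures over the whole profile. Knockout cultures 1 and 2 and wild-type culture 1 lay at the ends of the first principal component of the enrichment values, and the main counts are also given without them. Xist, transcribed from the inactive X chromosome of females, had Input levels of 7.01 and 7.15 in knockout cultures 1 and 3, 5.96 in wild-type culture 5 and 4.64 in wild-type culture 2, against 3.12 to 3.49 in the other 6 cultures, so the sex makeup of the cultures differed within both genotypes.

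Fmr1 itself was lower in every knockout array, in both fractions. Its CLIP levels were 3.92, 3.81, 3.93, 4.03 and 3.93 in knockout cultures 1 to 5, and its Input levels 3.98, 4.03, 4.06, 4.34 and 4.28. In wild type the CLIP levels were 6.59, 6.20, 6.33, 6.80 and 6.56, and the Input levels 5.49, 5.70, 5.64, 5.59 and 6.03. The lowest wild-type array lay above the highest knockout array in each fraction, as the labels require. Enrichment of Fmr1 averaged −0.22 ± 0.12 in knockout and 0.80 ± 0.33 in wild type (SD, n = 5 cultures each), a difference of −1.02 (SE 0.17, limma adjusted p = 0.106). All 5 knockout values lay below all 5 wild-type values, and an exact two-sided permutation test gave p = 0.00794, the smallest that 5 against 5 cultures allow. The CLIP part was −2.57 and the Input part −1.55. Knockout levels lay in the low range of the scale in both fractions, and arrays understate differences there. With so little of the mRNA in knockout, its enrichment there carries no information on binding by FMRP. The difference of enrichment, its lack of overlap and its p-values thus mostly restate the wild-type enrichment beside the loss of the mRNA.

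With limma's moderated test over all 24551 features, 2 features passed an adjusted p of 0.05 with lower enrichment in knockout (0.00815% of those tested) and 0 passed with higher enrichment (0%). At an unadjusted p of 0.05, 875 features were lower (3.56%) and 577 higher (2.35%) in knockout. The features that passed were Dgkk and 2610507B11Rik, and in both the CLIP part was far larger than the Input part. Without knockout cultures 1 and 2 and wild-type culture 1 the count was 0, with 860 features lower and 580 higher at an unadjusted p of 0.05.

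Dgkk encodes diacylglycerol kinase kappa, of the enzymes that convert the membrane messenger diacylglycerol into phosphatidic acid, and the table places it on chromosome X. Its CLIP levels were 4.64, 4.58, 4.46, 4.88 and 4.86 in knockout cultures 1 to 5, against 7.79, 6.52, 6.92, 6.88 and 7.33 in wild-type cultures 1 to 5. Its Input levels were 4.48, 4.37, 4.29, 4.65 and 4.18 in knockout, against 4.35, 4.59, 4.39, 4.08 and 4.27 in wild type. The CLIP arrays of the genotypes were separated by a wide gap, while the Input ranges overlapped. Enrichment was 0.16, 0.20, 0.17, 0.23 and 0.67 in knockout, so knockout CLIP stood little above knockout Input, at levels where an enrichment could be understated. In wild type it was 3.44, 1.93, 2.52, 2.80 and 3.06. The means were 0.29 ± 0.22 in knockout and 2.75 ± 0.57 in wild type (SD, n = 5 each), a difference of −2.46 (SE 0.24, limma adjusted p = 0.00137). No fold is given, because knockout CLIP and both Inputs lay low on the scale.

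The CLIP part of the Dgkk difference was −2.40 and the Input part 0.06. Dgkk passed in each of the 10 fits that left out 1 culture, with differences between −2.67 and −2.29 and adjusted p between 0.00013 and 0.0113. Without knockout cultures 1 and 2 and wild-type culture 1 the difference was −2.22, with an adjusted p of 0.0575 in limma. The exact permutation p was 0.00794, or 0.0516 after adjustment over the 13 features of Fmr1 and the diacylglycerol kinases. The Input levels of Dgkk lay low on the scale in both genotypes, so the Input arrays give little information on a difference in its abundance.

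The other 9 diacylglycerol kinases did not pass. None of their 11 features had groups without overlap, beside 0.766% lower and 0.289% higher among all features. With so few features this count does not set the other kinases apart from the whole array. Dgkh had the most negative mean difference among genes with a single feature (−0.29, SE 0.23, limma adjusted p = 0.963), with enrichment of 1.03 ± 0.46 in knockout and 1.32 ± 0.37 in wild type. Its mRNA was thus precipitated in both genotypes. Dgkq lay in the other direction, at 0.64 ± 0.61 in knockout and 0.21 ± 0.21 in wild type (difference 0.42, SE 0.25, limma adjusted p = 0.902). The 3 features of Dgkz gave −0.33, −0.06 and 0.07. Exact permutation p-values of these 11 features ran between 0.127 and 0.968. The interval of a difference of this kind is wide: the SE of a single kinase was 0.14 to 0.25. The test could miss differences several times these SEs, since Fmr1, at −1.02 (SE 0.17), did not pass.

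**Figure D1:**
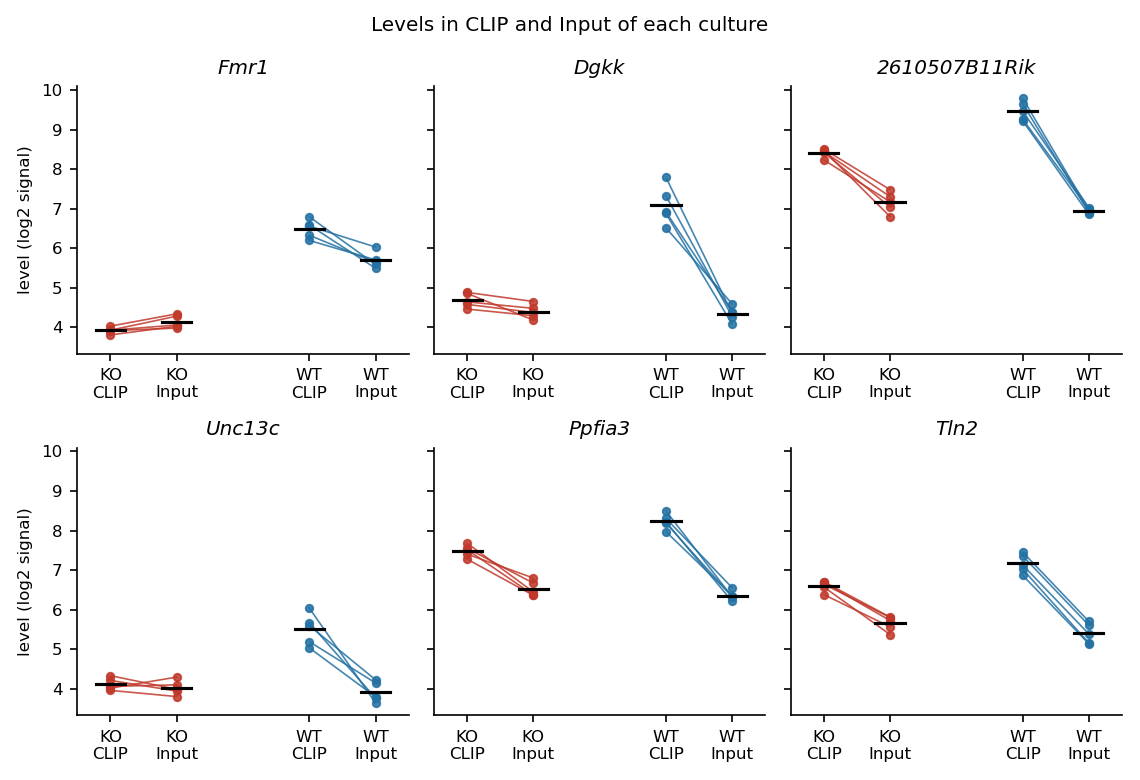
Log2 level (vertical axis) of 6 features in the CLIP and Input arrays of knockout (red) and wild-type (blue) cultures; points are arrays, lines join the CLIP and Input arrays of a culture and black bars are group means. Dgkk and Unc13c stood apart from the other groups in wild-type CLIP alone, while Fmr1 was also lower in knockout Input and 2610507B11Rik was precipitated in both genotypes.

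The second feature, 2610507B11Rik on chromosome 11, has the synonym Kiaa0100 in RefSeq and is counted from general knowledge among the bridge-like lipid transfer proteins, long rod-shaped proteins that carry lipids between membranes. Its mRNA was enriched in knockout too. Enrichment was 1.14, 1.67, 1.03, 1.38 and 1.06 in knockout cultures 1 to 5, against 2.75, 2.36, 2.84, 2.29 and 2.44 in wild-type cultures 1 to 5. All 5 knockout cultures lay below the lowest wild-type culture, yet each was above 1. The means were 1.26 ± 0.27 in knockout and 2.54 ± 0.24 in wild type (SD, n = 5 each), a difference of −1.28 (SE 0.17, limma adjusted p = 0.0325), or 2.43-fold lower in knockout. Its CLIP part was −1.07 and its Input part 0.22. The call depended on the fit: among the 10 fits without 1 culture it held only without knockout culture 2, with adjusted p between 0.0148 and 0.17, while the difference stayed between −1.39 and −1.21. It was lost with each array centred on its median (adjusted p = 0.079), with the replicate number as a block (0.211), with a trended robust variance (0.139) and without the 3 cultures that stand apart (0.138), all in limma.

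Below the threshold, the features of lowest p with no overlap between the groups are given as values. Unc13c, a priming factor of synaptic vesicles, had enrichment of −0.28, 0.35, 0.16, −0.04 and 0.27 in knockout and 2.40, 1.04, 1.24, 1.91 and 1.37 in wild type. Its difference was −1.50 (SE 0.24, limma adjusted p = 0.106), with a CLIP part of −1.39 and an Input part of 0.11. Like Dgkk, it was near 0 in knockout and above 1 in every wild-type culture. Its group means were 4.12 in knockout CLIP, 4.03 in knockout Input and 3.92 in wild-type Input, all low on the scale, against 5.51 in wild-type CLIP. All 7 Unc13c features had differences below 0 (−1.50 to −0.06), and 3 of them had groups without overlap.

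Ppfia3, a liprin of the presynaptic active zone, and Tln2, a talin that ties integrins to actin, were instead precipitated in both genotypes. Enrichment of Ppfia3 was 0.61, 1.23, 0.88, 0.92 and 1.14 in knockout, against 1.87, 1.62, 2.01, 1.76 and 2.18 in wild type (difference −0.93, SE 0.16, limma adjusted p = 0.133). Tln2 had 0.97, 1.20, 0.84, 0.89 and 0.81 in knockout and 1.73, 1.87, 1.75, 1.75 and 1.75 in wild type (difference −0.83, SE 0.13, limma adjusted p = 0.106). The spread of Tln2 between wild-type cultures was small (SD 0.06). Among the rest of the 12 features of lowest p, the kinase gene Mast2 differed by −0.91, the zinc-finger gene Zfp180 by −0.91, the semaphorin receptor gene Plxnd1 by −0.80 and Sec16a, whose protein organises exit sites of the endoplasmic reticulum, by −0.79 (limma adjusted p 0.126 to 0.184). For Sec16a the Input part, 0.43, was larger than the CLIP part, −0.35. The predicted gene Gm13235 had 2 features with identical values, at −1.21, which are 1 measurement.

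The groups did not overlap for 188 features with lower enrichment in knockout (0.766% of those tested) and 71 with higher enrichment (0.289%). This split depends on the scaling: it was 210 lower and 132 higher after quantile normalization, and 108 lower and 118 higher when each array was centred on its median. The median difference over all features was −0.025 as deposited, −0.007 after quantile normalization and 0.028 after centring. Over the 188 features, whose choice fixes the sign, the median difference was −0.51, composed of a median CLIP part of −0.30 and a median Input part of 0.21. The CLIP part was the larger in 112 of them. For the other 76 the genotype difference in Input was at least as large, with higher Input levels in knockout.

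Many of the 188 features were also enriched without FMRP. In 117 of them mean enrichment was above 0 in both genotypes, in 51 in wild type only and in 20 in neither, while over all 24551 features it was above 0 in both for 7519. In 89 of the 188 all 5 knockout cultures were above 0, and in 52 all 5 were below 0. Their median enrichment was 0.18 in knockout and 0.75 in wild type. Across all features mean enrichment in knockout correlated with that in wild type at r = 0.913, a description over features that share arrays. Of the 1286 features with enrichment above 1 in wild type, 797 were also above 1 in knockout, 1249 were above 0.5, and 1 was at or below 0 (a feature of Zbed4, chosen here after its value was seen, at −0.05 in knockout and 1.01 in wild type). Of the 1042 features above 1 in knockout, 797 were above 1 in wild type. The bulk of what the antibody enriched in wild-type neurons was thus enriched in neurons without FMRP as well.

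**Figure D2:**
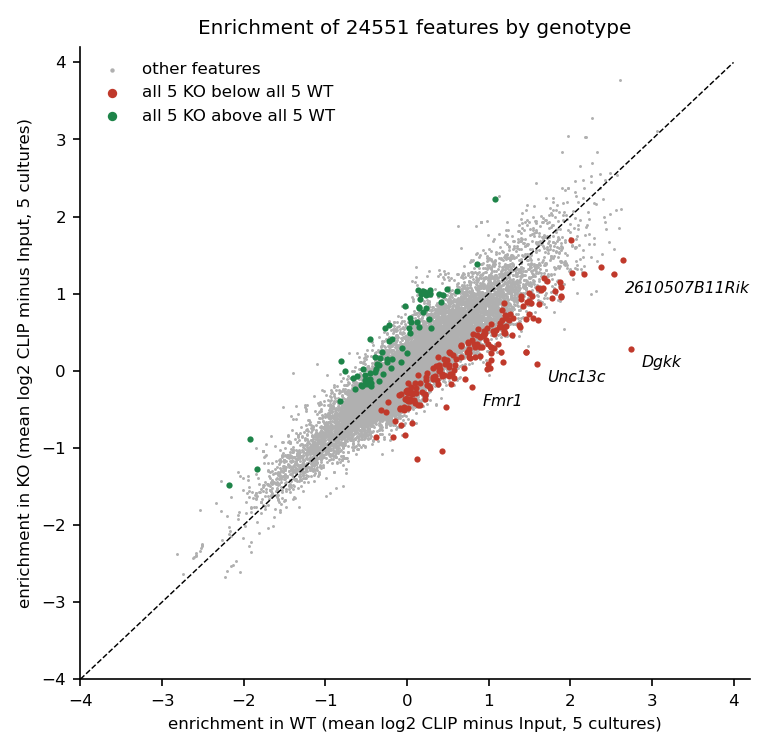
Mean enrichment of all 24551 features, in knockout (vertical axis) and in wild type (horizontal axis), both as log2 CLIP minus Input over 5 cultures, with the dashed line marking equality. Red and green points are the 188 and 71 features whose groups did not overlap; Dgkk lies far from the line, at 0.29 in knockout and 2.75 in wild type.

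The 71 features with higher enrichment in knockout were made up differently. Their median CLIP part was 0.20 and their median Input part −0.31, and the CLIP part was the larger in 26 of the 71. None passed the test. Mnd1, a gene of meiotic recombination, had the lowest p (0.12 ± 0.33 in knockout and −0.81 ± 0.17 in wild type, difference 0.93, SE 0.17, limma adjusted p = 0.184), with a CLIP part of 0.19 and an Input part of −0.74. Its group means were low on the scale, at 4.17 in knockout CLIP, 4.04 in knockout Input and 3.98 in wild-type CLIP, against 4.79 in wild-type Input. Taf1d, which encodes a subunit of the RNA polymerase I selectivity factor, had 1.66, 2.59, 1.77, 3.16 and 1.95 in knockout and 1.36, 0.90, 1.06, 0.96 and 1.08 in wild type (limma adjusted p = 0.384), with an Input part of −0.87. Of its 10 features, of which 7 are distinct in their values, 1 had a difference below 0. Ifitm3, an interferon-induced membrane protein, was depleted from CLIP in both genotypes, at −0.89 ± 0.24 in knockout and −1.93 ± 0.51 in wild type (limma adjusted p = 0.373). For this gene the CLIP part, 0.76, was the larger. Zcchc9, a zinc-finger gene, had 0.99 ± 0.25 in knockout and 0.18 ± 0.22 in wild type (limma adjusted p = 0.251), with an Input part of −0.47. Rnu3a, a small nucleolar RNA, was depleted from CLIP in both genotypes, at −1.48 ± 0.32 in knockout and −2.19 ± 0.27 in wild type, with a CLIP part of 0.05. The differences of Spopl, Mrps9, R74862 and 3200002M19Rik were 0.54 to 0.75, and in each the Input part was the larger.

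**Figure D3:**
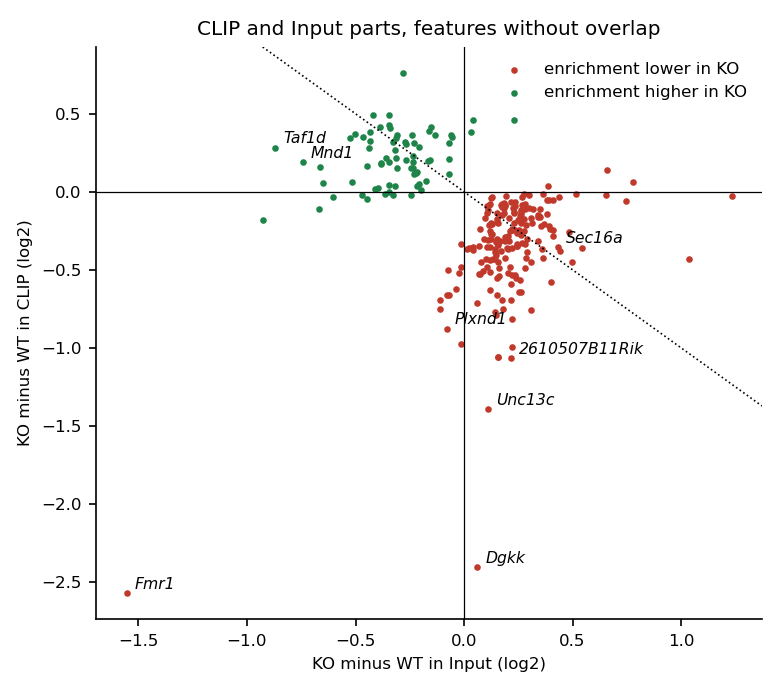
Genotype difference in CLIP (vertical axis) against that in Input (horizontal axis), both knockout minus wild type on the log2 scale, for the 188 features with lower (red) and the 71 with higher (green) enrichment in knockout. On the dotted line both parts are equally large and of opposite sign; Dgkk and Unc13c lie near 0 in Input, Fmr1 is low in both, and Taf1d and Mnd1 lie to the left through their Input part.

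Some features higher in knockout are placed by the table on another chromosome than the gene they are named after. The table's chromosome differed from that of the RefSeq gene of the same accession or symbol for 1163 of the 23232 features with both (5.01%). The same held for 9 of 69 such features among the 71 (13%) and for 1 of 183 among the 188 (0.546%). The 9 were 5 features of Hmgb1, a chromatin protein, 2 of the chromodomain gene Morf4l1 and 1 each of the RNA-binding protein genes Ewsr1 and Hnrnpk; Hmgb1 and Hnrnpk were chosen after their values were seen. Probes on such copies can bind RNA of the parent gene, so features of 1 gene are not independent and which copy they measure is uncertain. The 5 Hmgb1 features differed by 0.58 to 0.87, with CLIP parts of 0.31 to 0.37. Over all 1163 features on another chromosome the median difference was 0.114, against −0.031 over the 22069 on the same chromosome; after quantile normalization the medians were 0.054 and −0.01, and after centring 0.167 and 0.022.

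Lower enrichment in knockout was more frequent among features with high enrichment, which is a description without a test. All features were ranked by mean enrichment over the 10 cultures and cut into 10 bins of equal size. In the top bin (above 0.66), 73 features had knockout values below all wild-type values (2.97%) and 7 the reverse (0.285%). In the bottom bin the counts were 3 and 4. The uneven split in the top bin held after quantile normalization (96 lower and 18 higher) and after centring (46 and 8). Gene span, the length of the gene in RefSeq with introns and a property not used in the comparison, was known for 96.9% of features. In the bin of the longest genes 45 features were lower without overlap (1.89%) and 4 higher (0.168%), against 4 (0.168%) and 5 (0.21%) in the bin of the shortest. The counts for the longest genes were 47 and 6 after quantile normalization and 28 and 6 after centring.

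**Figure D4:**
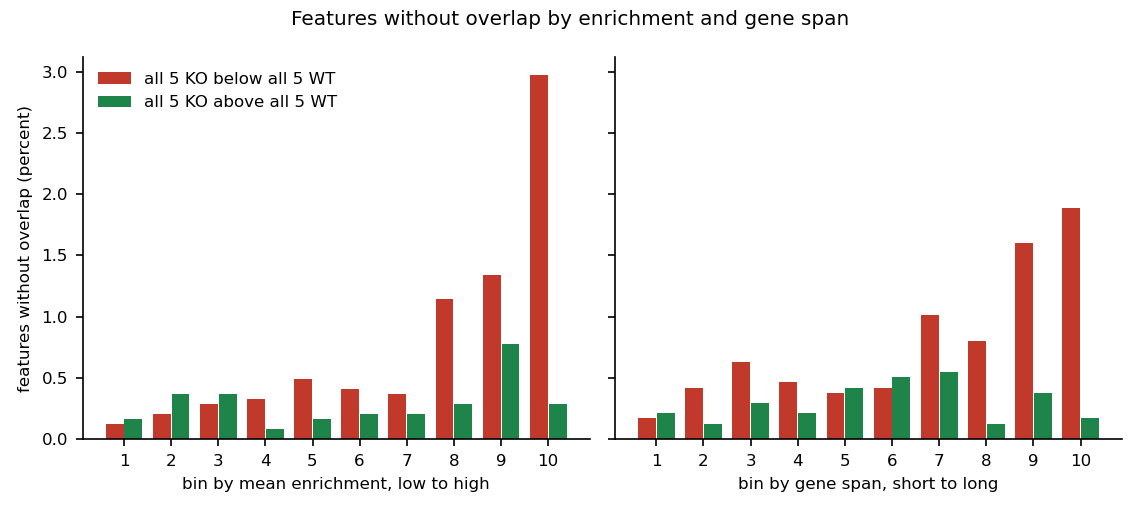
Percent of features without overlap between genotypes, lower (red) or higher (green) in knockout, in 10 equal bins of all features by mean enrichment over the 10 cultures (left) and by gene span (right). The top bin by enrichment holds 2.97% lower and 0.285% higher features, and the bin of longest genes 1.89% and 0.168%.

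Gene lists are described by the number of features below 0 and their median difference, beside 55.3% of all features below 0 and a median of −0.025. The list of earlier reported FMRP ligands, 110 neuronal genes named in the literature, had 125 of 154 features below 0 (81.2%) and a median of −0.22, with 0 features past the threshold. In 13 of them (8.44%, beside 0.766% of all features) the groups did not overlap in this direction, and in 0 in the other (0.289% of all features). The list contains Fmr1 itself, 1 of these 13, whose mRNA the knockout cells lack. Kcnh1, a voltage-gated potassium channel gene, had enrichment of 0.35 ± 0.19 in knockout and 0.99 ± 0.22 in wild type (difference −0.64). Kif1a, the gene of an axonal transport motor, had 1.06 ± 0.19 in knockout and 1.64 ± 0.13 in wild type (difference −0.58). Both had a limma adjusted p of 0.471, so that these ligands were precipitated in knockout as well and did not pass singly. The median stayed below 0 under each scaling (−0.23 after quantile normalization, −0.16 after centring) and in the 10 fits without 1 culture (−0.29 to −0.15).

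Several lists of very large proteins had medians well below 0. The cadherin, spectrin and ubiquitin ligase lists below share members with the FMRP ligand list, Fat3, Ank2 and Huwe1 among them. Their features are thus partly counted again and the lists are not independent. All 32 features of the bridge-like lipid transfer proteins lay below 0, with a median of −0.46, median enrichment of 0.94 in knockout and 1.47 in wild type, and 2610507B11Rik as the 1 feature past the threshold. The list was chosen with earlier results of these data known and holds 2610507B11Rik, so its direction is a description only. The list's features are not independent, since 19 of them belong to 4932438A13Rik, the long lipid-transfer gene also called Kiaa1109, at −0.98 to −0.19. None of these 19 had groups without overlap, beside 0.766% lower and 0.289% higher among all features. Uhrf1bp1l, another member, stood at 0.68 ± 0.39 in knockout and 1.47 ± 0.24 in wild type (difference −0.79, limma adjusted p = 0.471). Knockout culture 2 reached a list median of 1.57, above 4 of the 5 wild-type cultures (1.22 to 1.62), while the other knockout cultures lay between 0.54 and 1.06.

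The Fat, Dachsous and Celsr cadherins, giant adhesion proteins of planar polarity, had 22 of 24 features below 0 and a median of −0.56. Their list medians did not overlap between genotypes, at 0.49 to 1.06 in the 5 knockout cultures and 1.25 to 1.65 in the 5 wild-type cultures. Fat3, which shapes neuronal processes, supplied 15 of these features, 14 of them below 0, and its feature of lowest p had 0.66 ± 0.36 in knockout and 1.60 ± 0.33 in wild type (difference −0.94, limma adjusted p = 0.384). Dchs1, a ligand of Fat4, differed by −0.69 and Fat4 by −0.67, both with overlapping groups.

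Spectrins, ankyrins and spectraplakins, which form and anchor the membrane skeleton, had 21 of 23 features below 0 and a median of −0.32, with 3 features without overlap (13%, beside 0.766% of all features). The beta-spectrin gene Spnb1, now Sptb, had 0.57 ± 0.10 in knockout and 1.16 ± 0.18 in wild type (difference −0.59, limma adjusted p = 0.422), with no overlap between the groups. Ank2, the ankyrin of axons, differed by −0.49.

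Among the giant ubiquitin ligases 32 of 37 features lay below 0, with a median of −0.23, and 5 features were without overlap (13.5%, beside 0.766% of all features). Gm15800, now Hectd4, had 1.15 ± 0.28 in knockout and 1.87 ± 0.09 in wild type (difference −0.72, limma adjusted p = 0.359), and all 3 of its features were below 0. Huwe1 had 1.26 ± 0.41 in knockout and 2.02 ± 0.11 in wild type (difference −0.75, limma adjusted p = 0.471). Herc2 and Hecw1 differed by −0.53 and −0.48, with Input parts (0.27 and 0.31) larger than their CLIP parts (−0.25 and −0.17). In each of these 4 genes enrichment in knockout stayed above 0.7 on average.

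Medians of the synaptic lists lay closer to the whole array than those of the large proteins. The postsynaptic scaffold had 41 of 54 features below 0 (75.9%, median −0.16), and 2 were without overlap (3.7%, beside 0.766% of all features). These were Dlgap3, at 0.47 ± 0.35 in knockout and 1.07 ± 0.16 in wild type, and Psd2, at 0.47 ± 0.17 in knockout and 0.93 ± 0.18 in wild type. For Psd2 the Input part, 0.35, was larger than the CLIP part, −0.11. In the presynaptic list 35 of 62 features were below 0 (56.5%, median −0.05), a share near that of all features, although 5 features were without overlap (8.06%, beside 0.766% of all features), 3 of Unc13c and those of Ppfia3 and the calcium sensor gene Doc2b (difference −0.53). Voltage-gated channels had 45 of 70 features below 0 (64.3%, median −0.11), and 4 were without overlap (5.71%, beside 0.766% of all features). The calcium channel gene Cacna1i differed by −0.58 and the potassium channel gene Kcnq3 by −0.58. Ionotropic glutamate receptors had 16 of 31 below 0 (median −0.02, 0.04 after centring), and the group 1 metabotropic glutamate pathway 20 of 28 (median −0.12). In either list 0 features were without overlap, beside 0.766% lower and 0.289% higher among all features.

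Signalling around the substrate of Dgkk was also listed. Of 74 features of diacylglycerol and phosphoinositide signalling, 59 lay below 0 (79.7%, median −0.14) and 4 were without overlap (5.41%, beside 0.766% of all features). Plce1, a phospholipase C that releases diacylglycerol, had 0.49 ± 0.14 in knockout and 1.19 ± 0.39 in wild type (difference −0.70). Pik3cb, a catalytic subunit of phosphoinositide 3-kinase, differed by −0.59 and the phosphatidylinositol transfer protein gene Pitpnm2 by −0.53. The inositol trisphosphate receptor gene Itpr1 had −0.58 with an Input part of 0.47. The limma adjusted p of these 4 genes was 0.532 to 0.668.

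Chromatin remodellers and histone modifiers were enriched in both genotypes (median 1.09 in knockout and 1.31 in wild type), with 66 of 94 features below 0 and a median difference of −0.16. The acetyltransferase gene Ep300 had 1.56 ± 0.36 in knockout and 2.15 ± 0.17 in wild type. Genes of the FMRP family and its partners had 23 of 41 features below 0 (median −0.01, which turned to 0.006 after quantile normalization and 0.04 after centring), with the paralogue Fxr2 at 0.42 ± 0.26 in knockout and 0.90 ± 0.35 in wild type. Autophagy genes (18 of 40, median 0.01) and immediate early genes (17 of 28, median −0.05, 0.006 after centring) were near the whole array as well.

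Lists of histone, ribosomal protein, respiratory chain and proteasome genes were depleted from CLIP in both genotypes, and their median differences lay on the other side of 0. Core histones had 6 of 68 features below 0, with median enrichment of −1.11 in knockout and −1.37 in wild type and a median difference of 0.15. Cytoplasmic ribosomal proteins had 108 of 424 features below 0 and a median difference of 0.09, which turned to −0.003 after quantile normalization. The respiratory chain had 37 of 109 and 0.08, which turned to −0.03 after quantile normalization. Mitochondrial ribosomal proteins (33 of 88 below 0, median 0.07) and proteasome subunits (16 of 45, median 0.06) were similar. Median CLIP and Input parts were −0.06 and −0.19 for the respiratory chain and −0.11 and −0.19 for mitochondrial ribosomal proteins. In these lists CLIP was thus not higher in knockout, and Input was lower by more than CLIP. GABA receptors, with median enrichment of 0.22 in knockout and 0.13 in wild type, had 6 of 22 features below 0 and a median difference of 0.12. The list of endoplasmic reticulum chaperones and stress genes also holds heat shock genes such as Hsp90aa1 and Hspa1a. With enrichment near 0 in both genotypes, it had 13 of 41 and 0.12. The small medians rested in part on single cultures. Without wild-type culture 1 they were −0.05 for the respiratory chain, −0.05 for the proteasome, −0.004 for mitochondrial ribosomal proteins and −0.0001 for the chaperone and stress list. Without knockout culture 4 they were −0.02 for the respiratory chain and −0.001 for mitochondrial ribosomal proteins. In these 7 lists 0 features passed. Without overlap were 1 core histone feature (Hist1h2bc, lower in knockout) and 1 mitochondrial ribosomal feature (Mrps9, higher in knockout). These were 1.47% and 1.14% of their lists, beside 0.766% lower and 0.289% higher among all features. The Hist1h2bc feature lay low on the scale, and the other feature of this gene differed by 0.10.

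**Figure D5:**
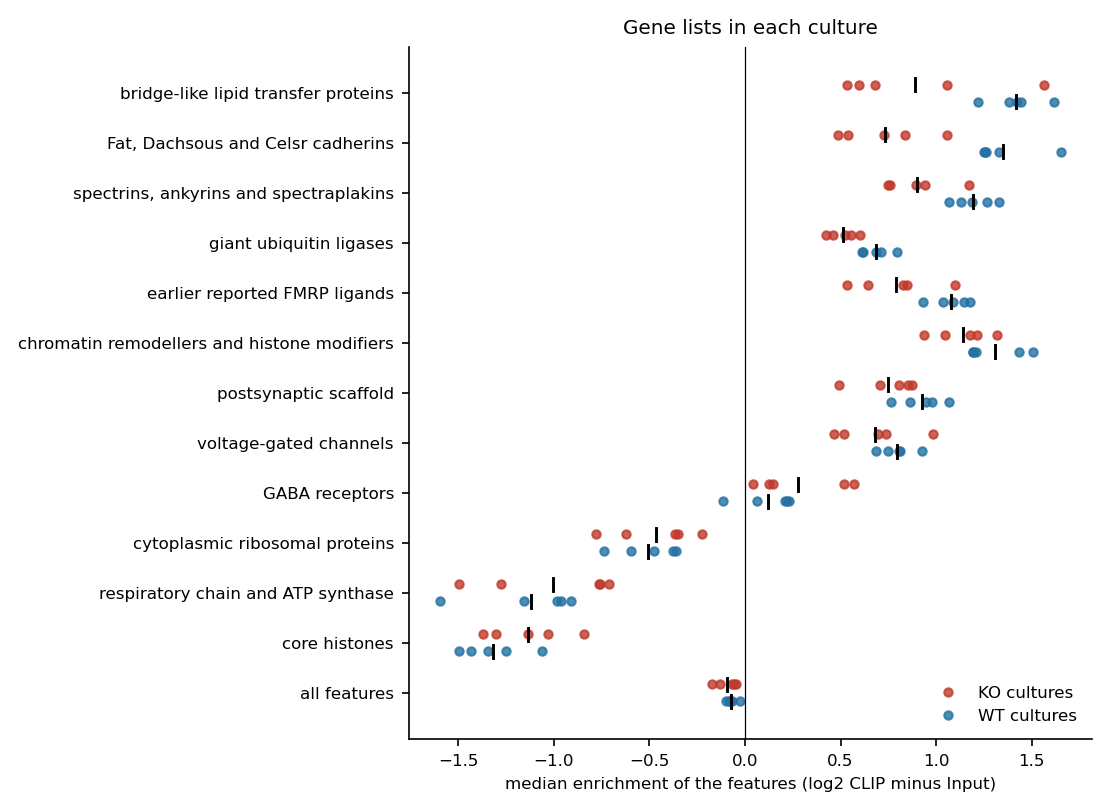
Median enrichment (log2 CLIP minus Input, horizontal axis) of 12 gene lists and of all features in each culture, with knockout cultures (red) above wild-type cultures (blue) and black ticks at the mean of 5 cultures. For the Fat, Dachsous and Celsr cadherins the knockout cultures (0.49 to 1.06) lie below the wild-type cultures (1.25 to 1.65), while for core histones and ribosomal proteins both genotypes lie below 0.

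Markers of the cell types that cortical cultures can hold were listed too. The neuronal marker Neurod6 had Input levels of 8.84 ± 0.72 in knockout and 8.87 ± 0.70 in wild type (SD, n = 5 each). The astrocyte marker Gja1 had 7.05 ± 0.20 in knockout and 7.14 ± 0.21 in wild type, so that its RNA was present in both genotypes. Gja1 is 1 of 15 astrocyte markers listed, and which cells supplied its RNA was not tested. In such bulk samples fewer cells of a type and less RNA per cell cannot be told apart. Across 7 marker lists the median difference of enrichment lay between −0.13 (oligodendrocyte lineage) and 0.06 (astrocytes). Of their features 0 had groups without overlap, beside 0.766% lower and 0.289% higher among all features.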

How the data were processed

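The 20 arrays (5 per group of genotype and fraction) were analysed as the log2 values that the authors deposited. Per the submitters' processing notes, these come from Affymetrix Expression Console 1.1 with robust multi-array averaging (RMA); per the labels, RNA was amplified and labelled with NuGEN kits. The labels name an exon array, but the identifiers resemble those of a different design by the same maker. No source used here gives the genome build. Depth does not apply to arrays; their number limits the precision, and no detection calls were used. Of the table's lines 7 were summaries and were left out. RefSeq names (GRCm38.p6 table) were matched for 23785 features, 21840 by accession, 1392 by symbol and 553 by synonym, and are used for names, gene span and chromosome only; 404 features share identical enrichment values with another feature.

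CLIP and Input arrays of the same genotype and number belong to 1 culture, since the design text speaks of 10 cultures. The 10 differences were fitted in R 4.3.3 by lmFit and eBayes of limma 3.58.1; tests were two-sided, with p-values of all 24551 features adjusted together by Benjamini-Hochberg and a threshold of 0.05. Exact permutation tests were added for Fmr1 and the diacylglycerol kinase family. A group "without overlap" has all 5 knockout values on one side of all 5 wild-type values. The CLIP and Input parts come from limma fits on 10 arrays each. Python 3.11.15 with pandas 2.3.3, numpy 2.4.6 and matplotlib 3.10.9 made the tables and figures, and the fits were tested on simulated data.

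Named are Fmr1, all diacylglycerol kinases, the features past the threshold, the 12 features of lowest p in each direction without overlap, and up to 4 genes of lowest p per list, with their other features; a few genes that this rule names are not reported here. Lists, members and rules were chosen with earlier results of these data known; list membership comes from general knowledge, with aliases for renamed genes. Alternatives were other scalings, blocks, filters, variance models, array weights, 1 value per gene, a threshold of 0.1, leaving out each culture, and, chosen after seeing the data, leaving out 3 cultures that stand apart.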

Additional observations from a re-analysis of the deposited data

Results flagged for a closer look

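The enrichment of Dgkk (−2.46, knockout minus wild type) and of 2610507B11Rik (−1.28) differed between genotypes by the limma test given above. In single groups of 5 cultures, 5 values lay far from the others among 186 groups examined, and chance marks about 1 in 20 groups. Dgkk enrichment was 0.673 in knockout culture 5, against 0.163 to 0.23 in the other knockout cultures, still below every wild-type culture. Dgkq, another diacylglycerol kinase, had 1.70 in knockout culture 1, against 0.183 to 0.444 in the other knockout cultures. Mrpl22, a mitochondrial ribosomal protein gene, had 0.107 in knockout culture 3, against −0.952 to −0.699. In wild type, Tln2 had 1.87 in culture 2, against 1.73 to 1.75 in the others. The ubiquitin ligase gene Herc2 had 1.94 in wild-type culture 2, against 1.47 to 1.59. Causes were not tested.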

How the results depend on the processing

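The count of features lower in knockout past the threshold (2 as reported) was 1 with arrays centred on their medians, 1 with a trended robust variance, 7 with the culture as a random block, 1 to 2 without single cultures and 0 without the 3 cultures that stand apart. It was 3 after quantile normalization, 3 with array weights and 2 with the filter at a mean log2 of 5, with 1 value per gene and at an adjusted p of 0.1. Whether replicate numbers shared by a knockout and a wild-type culture mark pairs was not settled. Residual correlations of the same-number cultures were 0.355, 0.227, 0.0987, −0.0459 and −0.0273, without different-number cultures beside them. The replicate block gave 1. At an unadjusted limma p of 0.05 it gave 1075 features lower and 952 higher, beside 875 and 577 in the main fit. The fit with no replicate block, which ignores that CLIP and Input share a culture, gave 5. The count higher in knockout past the threshold was 0 in all of these settings except the random block, where it was 1 (Mnd1, low on the scale). Features without overlap numbered 108 lower and 118 higher after centring, 210 and 132 after quantile normalization, 276 to 361 lower and 113 to 259 higher without single cultures, and 900 and 656 without the 3 cultures, since fewer cultures overlap less often by construction. Differences near 0 turned sign: Dgkd to 0.0164 and Dgke to −0.1751 without the 3 cultures, Dgke to −0.0499 with array weights, and 1 Dgkz feature to −0.1071 with 1 value per gene. Without single cultures the Dgkz features near 0 ran between −0.1142 and 0.0257 and between −0.0336 and 0.1568, and Dgke between −0.1124 and 0.1465. The cause was not tested. Differences between features low on the scale are compressed, which limits what the Input arrays show for Dgkk and Unc13c.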
